A study of Mus musculus with 4 samples.

Results

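The regions described here are 10 kb anchors of chromatin interactions that lie at an end of a noncoding RNA gene and away from every protein-coding gene. An anchor was a member if it came within 2.5 kb of an annotated end, lower or upper, of a lncRNA or miRNA gene and overlapped neither the body of a protein-coding gene nor the 2.5 kb around a coding gene's end. Of 56427 distinct anchors, 4916 were members (8.71%, exact 95% interval 8.48 to 8.95%). They held the ends of 3503 lncRNA genes and 103 miRNA genes. Among anchors, which each have at least 1 interaction, the rule used positions only. The number of interactions per anchor, called the degree here, and the partners of each anchor were not used to choose among them.

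The study profiled H3K27ac in mouse brain cells in 2 groups of 2 libraries, by HiChIP according to the protocol and the design text, while the sample titles name ChIP-seq. One group was cultured wild-type neural stem cells, called neural progenitor cells in another label, grown with EGF, basic FGF and heparin. The other was tumor cells isolated from YAP-M tumors, with the genotype YAP-M fusion, in a study of YAP fusions in ependymoma; YAP-M is known as a join of YAP1 and MAMLD1. The labels give no age, promoter or route of delivery for the fusion, repeat the stem cell culture text for the tumor, and do not say whether the libraries of a group came from separate animals or cultures. The deposited table is a single list of 99041 interactions without counts, scores or library names, whose name carries the letters YM, read here as YAP-M. It holds no expression values, so the tumor's cell type could not be checked against markers, and no list of the stem cells was used here. Read depth is unknown and no value has a replicate error. Exact intervals cover counting error only and are too narrow, because neighbouring bins and calls are not independent. For the same reason no test between classes of anchors was run, and differences between them are descriptions of this list. All positions are on mm10.

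H3K27 acetylation marks active promoters and enhancers, and HiChIP reports which regions were close in the nucleus to a region carrying the mark. LncRNA genes are transcribed by RNA polymerase II and many lie in or beside enhancers, so an anchor at one of their ends may be a promoter, an enhancer or both. MiRNA genes encode short hairpins that are cut to mature RNAs, and a mature miRNA recognises its target mRNAs mainly through the seed, bases 2 to 8. In the developing brain miR-124 and miR-9 are known for roles in neuronal differentiation, miR-125b and let-7 for roles in progenitor timing, and the miR-17 cluster for promoting proliferation.

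Several miRNA families were represented at more than 1 member locus. Of the 103 miRNA genes at members, 86 had a mature sequence in the RefSeq table of GRCm38.p6, and 137 mature sequences, with those of 1 chromosome set aside, carried 110 different seeds. A seed was shared by at least 2 member genes in 17 cases. Among the sequences matched, the let-7 seed was in the most genes, with 6 genes on 3 chromosomes, and the miR-9 seed came from 3 genes on 3 chromosomes. The following mature sequences are shown because their genes carry the contacts described further on, with the seed in capitals, and sequences that share a seed stand together.
miR-125b-5p (Mir125b-1 and Mir125b-2): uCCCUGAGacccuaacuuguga
miR-9-5p (Mir9-1, Mir9-2 and Mir9-3): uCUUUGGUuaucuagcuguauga
miR-9-3p (the same genes, opposite arm): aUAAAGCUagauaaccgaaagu
let-7a-5p (Mirlet7a-1): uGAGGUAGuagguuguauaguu
let-7b-5p (Mirlet7b): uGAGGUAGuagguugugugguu
let-7c-5p (Mirlet7c-1 and Mirlet7c-2): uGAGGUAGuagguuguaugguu
miR-100-5p (Mir100): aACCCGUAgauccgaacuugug
miR-99a-5p (Mir99a): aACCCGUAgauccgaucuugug
miR-17-5p (Mir17): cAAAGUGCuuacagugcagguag
miR-20a-5p (Mir20a): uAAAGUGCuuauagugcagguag
miR-15a-5p (Mir15a): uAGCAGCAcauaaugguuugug
miR-16-5p (Mir16-1): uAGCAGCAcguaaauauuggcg
miR-193a-3p (Mir193a): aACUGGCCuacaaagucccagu
miR-193b-3p (Mir193b): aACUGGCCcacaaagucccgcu
miR-29a-3p (Mir29a): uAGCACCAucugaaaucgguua
miR-29b-3p (Mir29b-1): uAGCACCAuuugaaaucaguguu
miR-34a-5p (Mir34a): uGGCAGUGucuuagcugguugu

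Noncoding gene ends outside coding genes were anchors more often than other intergenic bins. Between the first and last anchor of each autosome, 14932 bins met the positional rule, and 4916 of these were anchors (32.9%, exact 95% interval 32.2 to 33.7%). Among the 107059 intergenic bins without a noncoding gene end, 12.6% were anchors. The figure was 44.6% for bins at coding gene ends and 25.8% for bins inside coding genes. Bins that sequencing cannot map count among the other intergenic bins, and their number was not measured. Counted by gene, 3606 of 8195 autosomal noncoding genes with an end bin free of coding genes (44.0%) were at a member, among them 103 of 261 such miRNA genes (39.5%).

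Members had a higher mean degree than other intergenic anchors, with the same median. Their mean degree was 4.04, with a median of 2 and quartiles of 1 and 5, against a mean of 3.25 for other intergenic anchors, 2.87 inside coding genes and 4.22 at coding gene ends. The median was 2 for other intergenic anchors and inside coding genes as well, and 3 at coding gene ends. At 10 or more interactions stood 485 members (9.87%, exact 95% interval 9.05 to 10.7%), beside 6.74% of all anchors, 5.99% of other intergenic anchors and 9.49% of anchors at coding gene ends. At the other end, 35.8% of members had a single interaction, against 42.8% of other intergenic anchors. The highest degree of a member was 54, equal to the highest of the other intergenic anchors and below the 86 reached at a coding gene end. Adjacent calls make up part of these counts. When interactions that neighboured each other by at most 1 bin at both anchors were joined into 1 contact, members had a mean of 2.15 contacts, other intergenic anchors 1.96 and coding gene ends 2.22.

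**Figure D1:**
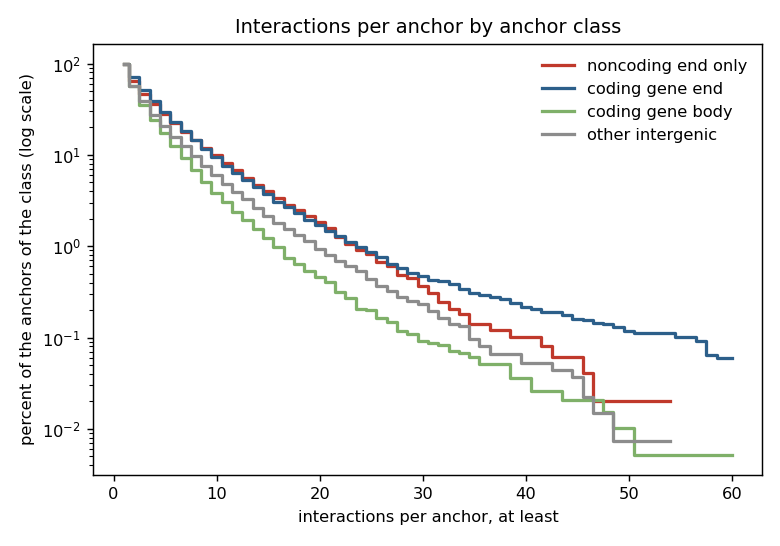
Percent of anchors (y, log scale) with at least the number of interactions on the x axis, drawn up to 60, for each of the 4 anchor classes. The curve of noncoding-end-only anchors runs near that of coding gene ends up to 10 interactions (9.87% and 9.49%) and above that of the other intergenic anchors (5.99%).

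Members lay nearer to coding genes than other intergenic anchors, at a median of 35.2 kb against 45.9 kb. The mean degree was also higher within classes of distance, while the median was 2 for both kinds of anchor in 4 of the 5 classes. Under 25 kb from a coding gene, the mean was 3.91 for 1995 members and 3.27 for 4891 other intergenic anchors. Between 100 and 200 kb it was 4.65 for 664 members and 3.38 for the others, the widest gap of the 5 classes. At 200 kb and beyond, both were lowest, with 3.26 and 2.83. The 4122 members with a single noncoding gene had a mean of 3.93 and the 794 with more than 1 had 4.60.

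**Figure D2:**
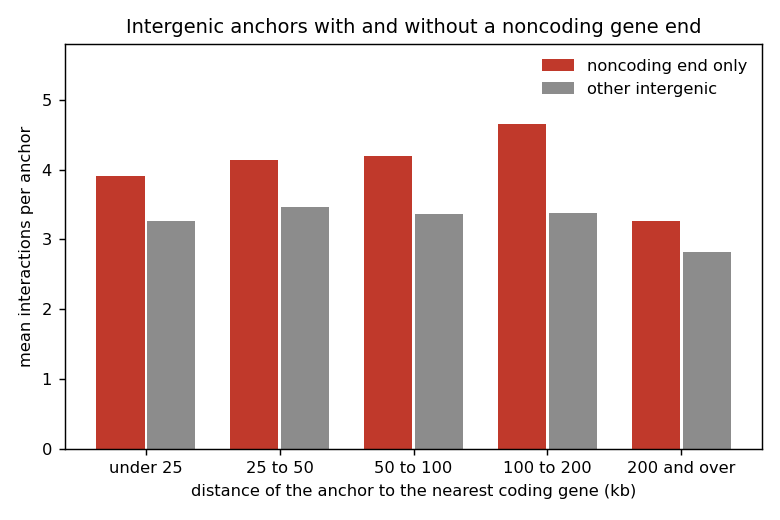
Mean interactions per anchor (y) for noncoding-end-only anchors and other intergenic anchors, in 5 classes of distance to the nearest coding gene (x, kb). The bars of noncoding-end-only anchors are the taller ones in each class, with 4.65 against 3.38 at 100 to 200 kb.

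The anchors of highest degree lay at lncRNA genes, as did 4862 of all 4916 members. Most of these genes are known only by clone or model names, and among all members 266 had a curated symbol. The class that held the most partners differed between them. It was coding gene bodies, other intergenic bins, other members or coding gene ends. The anchor of highest degree was at the end of 2310015A10Rik on chromosome 12 from 80130001 to 80140000, with 54 interactions. All 54 partners lay at lower coordinates, as far as 840 kb away, and 43 of them were inside coding genes. Over both member bins of this lncRNA gene there were 76 interactions, in bins of 22 and 54. The order changed when neighbouring interactions were joined: the bin of 54 had 8 contacts, while both bins of A230028O05Rik had the highest number among members, 16. Gm26682 and Gm15418 had 12, Dubr 11, Dleu2 10 and Gm4319 4.

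The bin with the next highest degree, 46, was at A230028O05Rik on chromosome 16 from 25060001 to 25070000, and the adjacent bin from 25050001 had 33. Counted over a whole gene, A230028O05Rik had the most interactions of all noncoding genes. The bins lay beyond Lpp, which encodes a LIM domain protein of cell adhesions, and of the 83 interactions over all 3 member bins of the gene, 56 fell inside Lpp and 2 at its ends. Lpp was the sole coding gene with an end among the partners.

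Dleu2, the lncRNA gene that hosts the hairpins of miR-15a and miR-16, reached 45 interactions in its bin on chromosome 14 from 61680001 to 61690000, which it shares with Gm35196. In contrast to the first 2 loci, 32 of these partners were in other intergenic bins and 9 were other members. A single partner was at a lower coordinate, and the other 44 reached 770 kb upward to ends of Rnaseh2b, Gucy1b2 and Gm4131. Rnaseh2b encodes a subunit of ribonuclease H2. The bins of the miR-15a and miR-16 hairpins, inside Dleu2, had 3 and 4 interactions.

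Other members of high degree are described with some of their partners. Both bins of Gm4319 on chromosome 1, with 41 and 34 interactions, had all partners at lower coordinates, and 4 of their 75 joint interactions reached an end of Fn1, the fibronectin gene, at 450 to 540 kb. The bin of Gm26682 on chromosome 18 had 42, with ends of Zeb1, a repressor known from epithelial to mesenchymal transition, Zfp438 and Arhgap12 among its partners. Dubr, a lncRNA gene on chromosome 16 at 50730001 to 50740000, had 38, all at lower coordinates. Of these, 21 were inside coding genes and 6 at coding gene ends, which included those of Bbx and of Cd47, the anti-phagocytic surface protein. Over both Dubr bins, 19 of 41 interactions fell inside Bbx and 2 at its ends. Gm15418 on chromosome 8 had 31, and Irs2, the insulin receptor substrate gene, was the sole coding gene with an end among the partners. It was reached at 170 to 200 kb.

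At 2 loci, members among those of high degree shared partner genes. On chromosome 9 between 60990001 and 61060000, 3 bins, at Gm51680, at LOC115487176 with Gm5122 and at Gm33699 with Gm46116, each touched ends of Tle3, a Groucho-family co-repressor, of Kif23, a kinesin of cytokinesis, and of the ribosomal gene Rplp1. They had 30, 31 and 34 interactions in this order. On chromosome 5, Gm43837 with 31 and Gm31889 with 32 interactions in their highest bins both reached ends of Fam114a1 and of Tlr6, a Toll-like receptor gene, and the Gm31889 bin had ends of 8 coding genes among its partners. In all, the 4916 members formed 3011 runs of adjacent bins, of which 57.8% were single bins and the longest had 8.

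**Figure D3:**
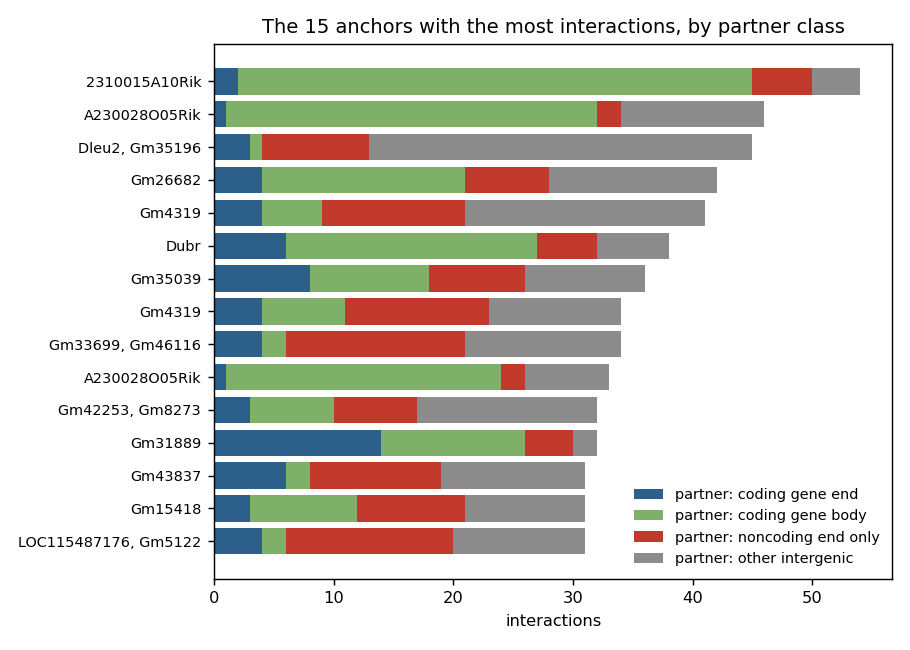
Interactions (x) of the 15 noncoding-end-only anchors of highest degree, labelled by the noncoding genes at the anchor and split by the class of the partner bin. The bars of 2310015A10Rik and A230028O05Rik are mostly coding gene body, and that of Dleu2 is mostly other intergenic (32 of 45).

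The promoters of 3 of these loci are shown as examples, from 250 bases before to 50 after the RefSeq start site. The bins holding these starts were among the most connected members. So were those of Dubr and Gm4319, with 38 and 34 interactions, whose promoters are not shown and held no match. Capitals mark matches of GGAATG, the core recognised by TEAD factors, or of TGANTCA, the AP-1 site, on either strand; the motifs do not overlap here. TEAD factors are the DNA-binding partners known for YAP, and AP-1 factors are known to bind at many of the same enhancers. The promoter of 2310015A10Rik (chr12:80132795-80133094, minus strand) had a TEAD core at bases 6 to 11, counted from the first base shown. That of Gm46116 (chr9:61056968-61057267, plus strand, the second start listed) had an AP-1 site at 18 to 24 and a TEAD core at 270 to 275 on the opposite strand. That of Dleu2 (chr14:61682324-61682623, minus strand) had neither, with a GC content of 69% and 29 CpG pairs. No match was found in the listed promoters of A230028O05Rik, Dubr, Gm4319, Gm31889 and Gm15418, or at the first start of Gm46116, in the same bin. Among promoters not shown, an AP-1 site was found at LOC115487176, at Gm5122 and at the Gm43837 start of chr5:64380302-64380601. Gm35196 had a TEAD core, and its start lies in the bin of 15 interactions next to that of Dleu2.
2310015A10Rik: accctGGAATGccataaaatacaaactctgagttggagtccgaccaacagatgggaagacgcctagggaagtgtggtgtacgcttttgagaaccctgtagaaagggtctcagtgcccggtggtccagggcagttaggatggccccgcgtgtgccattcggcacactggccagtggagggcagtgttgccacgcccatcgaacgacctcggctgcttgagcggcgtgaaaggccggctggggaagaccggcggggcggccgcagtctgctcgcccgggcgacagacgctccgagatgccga
Gm46116: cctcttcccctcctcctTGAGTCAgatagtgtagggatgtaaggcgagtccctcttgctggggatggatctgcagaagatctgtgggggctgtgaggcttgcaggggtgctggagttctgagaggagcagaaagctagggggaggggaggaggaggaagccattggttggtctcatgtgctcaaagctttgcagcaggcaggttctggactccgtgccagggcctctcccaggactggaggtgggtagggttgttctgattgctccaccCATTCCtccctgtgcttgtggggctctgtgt
Dleu2: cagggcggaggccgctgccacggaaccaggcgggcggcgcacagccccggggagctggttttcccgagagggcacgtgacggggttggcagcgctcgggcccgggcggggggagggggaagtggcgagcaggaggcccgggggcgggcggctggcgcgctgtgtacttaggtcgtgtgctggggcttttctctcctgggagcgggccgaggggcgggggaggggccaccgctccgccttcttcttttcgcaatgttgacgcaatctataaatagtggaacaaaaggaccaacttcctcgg

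The motifs were also counted in all promoters. A promoter sequence was listed for 2671 of the 3606 noncoding genes, and 2520 promoters of 2080 genes had their start site at a member. Of these, 17.5% held the TEAD core (exact 95% interval 16.04 to 19.04%), against 16.4% of the noncoding promoters not at members, 13.6% of coding promoters and 14.7% of all promoters in the table. The AP-1 site was in 10.7% (9.53 to 11.99%), against 8.83%, 6.99% and 7.81%. Among promoters at members of 10 or more interactions, the shares were 15.7% and 10.7%, with wide intervals of 11.9 to 20.1% and 7.49 to 14.6%. The palindrome of nuclear factor I, TTGGC followed after 5 bases by GCCAA, was in 1 promoter at a member and in 12 of all 32851. Promoters at members had a median GC content of 48.0% and 4 CpG pairs, against 56.3% and 13 for coding promoters. A match of so few letters is a description of the sequence and not a bound site.

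Where the start site could be told from the other end, bins with a start had a higher mean degree, with the same median of 2. The 2496 members that held a listed start of their noncoding gene had a mean degree of 4.33, and 11.1% had 10 or more interactions. The 1255 members that held other ends had a mean of 3.50, and 7.25% had 10 or more. The remaining 1165, at genes with no listed promoter, were between these with 3.98. With adjacent calls joined, the mean was 2.24 contacts for members with a start and 2.00 for those with other ends. Bins with a start joined coding gene ends slightly less often, in 32.4% of their interactions against 35.1%.

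Among miRNA genes, Mir125b-1 had the most interactions with 30, followed by Mir124a-1 with 27, in bins it shares with Mir3078 and the host Mir124a-1hg. With adjacent calls joined, Mir125b-1 had 10 contacts and Mir124a-1 had 9. The 94 members at miRNA genes had a mean degree of 4.31 and 12 of them (12.8%, exact 95% interval 6.77 to 21.2%) had 10 or more interactions. The highest was the Mir125b-1 bin on chromosome 9 from 41580001 to 41590000, with 24 interactions, and its neighbour had 6. The hairpin lies inside the lncRNA gene Mir100hg, and the partners of the 24 were spread on both sides, 8 lower and 16 higher. They reached an end of the chaperone gene Hspa8 at 780 and 790 kb and an end of Sorl1, a sorting receptor gene, at 380 kb, while 13 were in other intergenic bins. At Mir100, a hairpin of the same host gene, 2 bins had 4 interactions each. The second copy, Mir125b-2 on chromosome 16, had 3 interactions, at 400 to 510 kb, and Mir99a in the same cluster had 8.

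The 3 miR-124 genes differed in the reach and the kind of their contacts. Mir124a-1 on chromosome 14, in bins of 22 and 5 interactions, had all its partners at lower coordinates between 130 and 490 kb. Of these 27 interactions, 22 fell inside Msra and 3 at its ends, and 2 partner bins held ends of the protease genes Prss51 or Prss52. Msra encodes methionine sulfoxide reductase A. The nearest coding gene, Kif13b, was not among the partners. Mir124a-2 on chromosome 3 had 9 interactions, all at 460 to 980 kb, and none of its partner bins held a coding gene. Mir124a-3 on chromosome 2 had 5, all within 70 to 110 kb, which joined into 1 contact. All 3 loci had contacts on the lower side alone.

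The 3 miR-9 genes, which give the same mature sequences, were as unequal. Mir9-2 on chromosome 13, in bins of 14 and 8 interactions, had partners at 130 to 1000 kb, all at higher coordinates, including an end of Tmem161b at 480 and 490 kb. Mir9-3 on chromosome 7 had 3 interactions within 90 kb, 1 of them with an end of Rhcg, an ammonium transporter gene. The host lncRNA gene Mir9-3hg had 2 interactions that joined its own ends. Mir9-1 on chromosome 3 had 2 interactions, each at 20 kb, the shortest distance in the list.

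The well-known miRNA genes described next had between 3 and 12 interactions. The single bin of the miR-17 cluster and its host Mir17hg on chromosome 14 had 6 interactions, all at lower coordinates within 200 kb, and 5 of the 6 partners were other lncRNA ends. Mir34a, a p53 target on chromosome 4, had 9, among them ends of H6pd, Slc25a33 and Gpr157. Mir193a on chromosome 11 had 12, all at higher coordinates, with an end of Utp6 among them, while Mir193b on chromosome 16 had 3. Mir29a and Mir29b-1 share a bin of 5. The let-7 loci had 7 interactions at Mirlet7b with Mirlet7c-2, 8 at Mirlet7c-1, 5 at Mirlet7a-1 and 4 at Mirlet7a-2. Of the less studied miRNA genes, Mir3089 had 25 over 2 bins, with ends of Ptpa, Ier5l and Cstad as partners, and Mir760 had 15 with ends of Fnbp1l and Bcar3. Joining adjacent calls left 6 contacts at Mir3089 and 7 at Mir760.

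**Figure D4:**
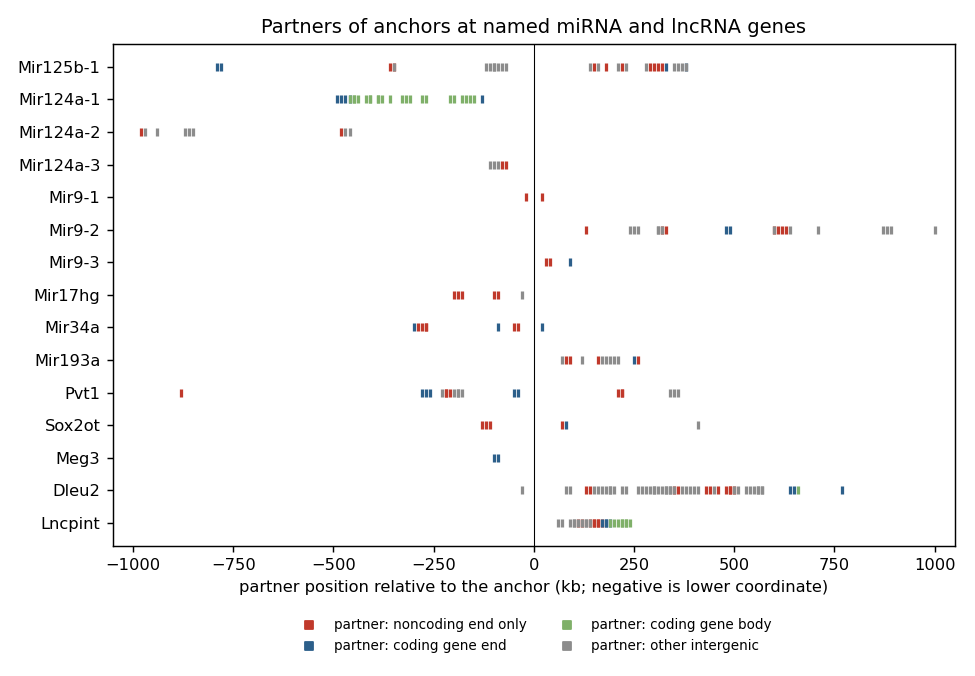
Position of each partner bin relative to the anchor (x, kb) for the member bins of 15 named miRNA and lncRNA genes (rows), coloured by the class of the partner. Mir124a-1, Mir124a-2 and Mir124a-3 have partners on the lower side alone, Mir9-2 on the higher side up to 1000 kb, and Mir125b-1 on both sides.

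Among well-known lncRNA genes, Pvt1, Sox2ot, Meg3, Lncenc1 and Mirt1 were each linked to a coding gene nearby. Of 104 noncoding genes listed as known, 97 were in the annotation and 2 were on chromosome X, where the list has no interaction. Of the others, 44 were at a member, 37 had no end bin free of coding genes, and 14 had such a bin but no interaction there, among them Rmst, Rian, Mirg, Mir137 and Mir181a-1. At this unknown depth a missing interaction was not detected, which does not show that there is none.

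Pvt1, a lncRNA gene next to Myc that is co-amplified with it in human cancers, had 4 member bins with 5, 4, 8 and 3 interactions. Its 17 distinct interactions made 5 contacts when adjacent calls were joined. The 17 included 5 with an end of Myc, at 40 to 280 kb, from all 4 bins. Another 3 joined the 2 ends of Pvt1, which is 222 kb long. Such links between the ends of one noncoding gene were rare among members. They made up 66 of 1359 interactions between 2 members (4.86%) and involved 51 genes, of which 1600002D24Rik had the most with 4.

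Sox2ot, the lncRNA gene that overlaps Sox2, had 6 interactions at its 3 free end bins, 1 of them with Sox2 at 80 kb. The bin of Mir1897, which lies in the same stretch and has no coding gene end among its partners, had 10. Meg3, an imprinted lncRNA gene, had 2 interactions, both with an end of Dlk1, the imprinted Notch-ligand-like gene of the same domain, at 90 and 100 kb. H19, of another imprinted domain, had 8, with ends of Mrpl23, Syt8 and Tnni2. Lncenc1 had 6, of which 4 reached an end of Enc1. Mirt1 had 15, of which 8 reached an end of Dusp5, a phosphatase of ERK. Lncpint, a p53-responsive lncRNA gene, had 30, all at higher coordinates, in bins it shares with an end of 2210408F21Rik. Of these 30, 12 lay at an end of or inside Mkln1, and joining adjacent calls left 2 contacts. It left 4 contacts each at H19 and Mirt1, 3 each at Sox2ot and Lncenc1, and 1 at Meg3.

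Malat1 and Neat1 are neighbouring genes of abundant nuclear lncRNAs. Malat1 had 8 interactions within 100 kb, with ends of Frmd8, Tigd3, Slc25a45 and Dpf2, and Neat1 had 1. Miat had 6, and Tug1 and Snhg15 had 1 each. Over all noncoding genes at members, lncRNA genes had a median of 4 and at most 83 distinct interactions, and miRNA genes a median of 3 and at most 30.

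Members took part in 18481 interactions, 18.7% of the list, with a median distance of 190 kb against 170 kb for the rest. Of these, 36.2% led to a coding gene end (exact 95% interval 35.5 to 36.9%), 27.5% into a coding gene body, 29.0% to another intergenic bin and 7.35% to another member. With bins classed by their midpoint, the share that led to a coding gene end was 17.2%. Counted from the anchor's side, 33.7% of the interactions of members led to a coding gene end. Other intergenic anchors gave 34.4% and coding gene ends 45.5%. Another member was the partner in 13.7% of the interactions of members, 12.2% of those of other intergenic anchors and 8.51% of those of coding gene ends.

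At least 1 coding gene end was among the partners of 3500 members (71.2%). For 62.0% of these there was 1 such gene and for 4.43% there were 5 or more. The nearest coding gene often had no end among the partners. Interactions in the list start at 20 kb, so the question was put to the 2921 members at least 25 kb from any coding gene. Of the 2144 with a coding gene end among their partners, the nearest gene had an end among them in 46.6% and had none in 53.4%. Partners inside the body of the nearest gene were not counted here, and other intergenic anchors were not compared. Among the 485 members of 10 or more interactions, 312 (64.3%) had at least 90% of their partners on 1 side, against 61.3% at coding gene ends, 69.2% inside coding genes and 64.0% at other intergenic anchors.

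Seen from the coding genes, 3089 of 20665 autosomal genes (14.9%) had an end linked to a member, which is 22.7% of those with any interaction at an end. Most links were few, with a median of 2 and 1402 genes with 1, and 106 genes had 10 or more. Gm38457, a predicted coding gene whose end bins also hold an end of Klf3, had 42, and Klf3, a zinc finger repressor, had 23. Dusp4, a MAP kinase phosphatase gene that shares end bins with Tnks, had 35 of its 77 interactions with members, at 12 noncoding genes. Enc1, which encodes an actin-binding kelch protein, had 34 of 92, and Tle3 had 27 of 56. Rreb1, a zinc finger factor of the Ras pathway, had 26 of 38, the highest share of the 15 leading genes at 68.4%.

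The remaining leading genes had 21 to 23 each. Tsc22d1 had 23, Zfp703 and Thada had 22, and Cebpb, Foxo1, Glul, Irs2 and Nuak1 had 21. Thada shares end bins with Zfp36l2, which had 21 links at the same noncoding genes, and Glul shares end bins with Teddm1a. Cebpb encodes a bZIP factor, Foxo1 a forkhead factor held back by insulin signalling, and Glul the glutamine synthetase of astrocytes. Many of these links were adjacent calls, and joining them into contacts changed the order. Gm38457 fell from 42 links to 2 contacts, Dusp4 from 35 to 4, Enc1 from 34 to 3, and Rreb1 and Klf3 to 2 each. Tle3 kept 9, Foxo1 7, Tsc22d1 and Irs2 5 each, and Cebpb 1. By contacts, Tle3 and Zfp608 led with 9 each, followed by Frmd6 with 8. Foxo1 had its links at 200 to 700 kb and Cebpb at 50 to 200 kb.

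**Figure D5:**
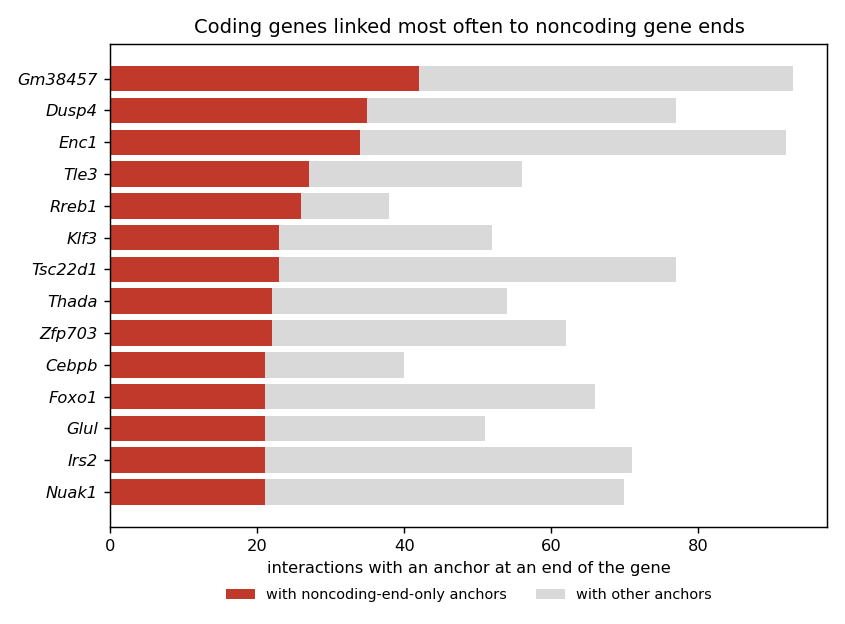
Interactions with an anchor at either end of the gene (x) for 14 coding genes linked most often to noncoding-end-only anchors, split into those with such anchors (red) and those with other anchors (grey). Rreb1 has the largest red share of its bar (26 of 38) and Gm38457 the longest red bar (42 of 93).

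Links to members followed the total number of interactions of a gene. Of coding genes with 1 to 4 interactions at their ends, 9.97% were linked to a member, rising to 23.5% at 5 to 9, 37.6% at 10 to 19 and 62.3% at 20 or more. The gene lists below differ in this total, and its part in their counts was not tested.

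Canonical YAP/TEAD target genes were linked to a noncoding gene end in 12 of 22 cases (54.5%, exact 95% interval 32.2 to 75.6%), beside 14.9% of all coding genes. Of coding genes with any interaction at an end, 22.7% were linked, and 21 of the 22 listed genes had an interaction. The median total of the list was 10 interactions. Of the 11 listed genes with 10 or more, 9 were linked. Over all coding genes the share was 37.6% at 10 to 19 interactions and 62.3% at 20 or more. F3, the coagulation tissue factor gene, had 16 of its 27 interactions with members, at A730020M07Rik and 4 predicted lncRNA genes. Tgfb2, a TGF-beta ligand gene, had 11 of 33, Ankrd1 had 8 of 17 and Amotl2, an angiomotin family gene, 5 of 17. Ccn2, the matricellular gene used as a reporter of YAP activity, had 2 of 13. When adjacent calls were joined, the links of F3 and of Ccn2 made 1 contact each. Those of Ankrd1 and Amotl2 made 2 each, and those of Tgfb2 made 6. The median number of links was 1 in this list and 0 over all coding genes.

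Counts for factors of proliferation and neural identity are to be read against the same 14.9%, and against the totals of the lists. The median total was 10.5 interactions for nuclear factor I and SOX genes, 8 for AP-1 genes and 7.5 for cell cycle genes. Coding genes with 5 to 9 interactions were linked in 23.5%, those with 10 to 19 in 37.6% and those with 20 or more in 62.3%. Of listed genes with 10 or more, 5 of 7 nuclear factor I and SOX genes were linked. The same held for 5 of 5 AP-1 and 6 of 8 cell cycle genes. Nuclear factor I and SOX genes were linked in 7 of 12 cases, with 11 links at Sox4 and 4 each at Nfib and Sox11. AP-1 genes were linked in 6 of 12, with 10 at Jun, which included its antisense neighbour Junos, and 3 each at Fosl2 and Batf3. Cell cycle genes were linked in 8 of 20. Myc had 12 of its 104 interactions with members, at Pvt1, D030024E09Rik and 3 predicted lncRNA genes, and the related Mycn had 6 of 13, at 250 to 530 kb. Joined into contacts, the links of Myc made 7, those of Sox4 made 4, and those of Jun and Mycn made 2 each.

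Neural stem cell and radial glia genes, with a median total of 8, were linked in 8 of 19, and in 6 of the 7 with 10 or more interactions. Hes1, the Notch effector, had 17 of 50, Sox2 had 8 of 27 and Notch1 had 5 of 8, all 5 at Gm36171. Homeobox and patterning genes were linked in 12 of 34, with a median total of 2, and in 6 of the 10 with 10 or more interactions. Emx2 had 11 links at 410 to 860 kb, Zic1 10 at up to 670 kb and Meis2 9 at up to 730 kb. Zic1 and Zic4 lie side by side, and links of one may be those of the other. Joined into contacts, the links of Hes1, Emx2, Zic1 and Meis2 made 4 each, those of Sox2 made 5 and those of Notch1 made 1.

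Among markers of differentiated and other cell types, the share linked ran from 6.25% of neuronal to 41.7% of astrocyte genes, beside 14.9% of all coding genes. Astrocyte genes were linked in 5 of 12, with a median total of 6. They were led by Glul, whose 21 links joined into 2 contacts, while Gfap and Nfia had 1 link each. The lists overlap. Sox9 is also a listed neural stem cell gene, and Nfia and the oligodendrocyte gene Sox10 are also in the list of nuclear factor I and SOX genes. Microglia and macrophage genes were linked in 4 of 15, endothelial genes in 3 of 12, ependymal and motile cilium genes in 3 of 20 and oligodendrocyte lineage genes in 2 of 10. The ependymal share, 15%, and the oligodendrocyte share, 20%, are near the share of all coding genes. Of the 16 neuronal genes 1 was linked, Tbr1, and their median total was 1. Fcrls, a microglial receptor gene, had 7 links in 3 contacts, and the single links of C1qa and C1qb were both at Gm31648. Pdgfra, the receptor of oligodendrocyte progenitors, had 8 links in 1 contact, and Foxj1, the regulator of motile cilia, had 1 link. Of genes with 10 or more interactions, 5 of 5 astrocyte and 0 of 4 ependymal genes were linked. The microglial, endothelial and oligodendrocyte lists had 1 of 2 each, and no neuronal gene reached 10. The difference between lists was not tested.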

How the data were processed

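Reads were handled with BWA on mm10, per the submitters' processing notes. Which caller and threshold made the interactions, and whether replicates were pooled, is not given in the sources used here. Per the file header, the deposited list holds the chromosome, start and end of 2 anchors per interaction; starts are counted from 0 in it and from 1 here.

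Genes came from the RefSeq table of GRCm38.p6, the assembly of mm10, which has no strand; start sites came from its promoter table. Python 3.11.15, pandas 2.3.3, numpy 2.4.6, scipy 1.17.1 and matplotlib 3.10.9 were used. Classification and merging were tested on simulated bins (600 of 600 classified correctly). The members and lists were chosen with earlier results of these data known. Named genes were those at the 15 members of highest degree, the 15 coding genes with the most links, listed known noncoding genes at members, list genes linked to a member, and miRNA genes at members of 10 or more interactions. Gm51680, Mir100, Mir99a, Mir15a, Mir16-1, Mir193b, Mirlet7c-1, Mirlet7c-2 and 1600002D24Rik fall outside it and were named after their values were seen. Some genes that the rule takes are not reported here. No test across libraries was possible.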

Additional observations from a re-analysis of the deposited data

How the results depend on the processing

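No paired analysis was possible because no interaction carries a value of a single library. Of 12 alternatives, 2 were added after the data were seen. The number of members was 2603 by bin midpoint, 94 for miRNA genes, 266 for curated symbols and 2631 for start sites (added), and stayed within 1.5 times 4916 under the others. The mean degree was 2.15 after merging and within 1.5 times 4.04 otherwise. The share of interactions with a partner at a coding gene end was 29.6% with a window of 0 kb and 41.3% with 5 kb. By midpoint it was 17.2%. These settings also change which partner bins count as a coding gene end. The share was 27.4% for miRNA genes, 32.0% for curated symbols and 35.4% without bins of other gene types. It was 34.1% without members beside a coding gene end (added) and 33.8% for start sites. After merging, 47.1% of contacts held at least 1 interaction that led to a coding gene end, which is not a share of interactions. The causes of the other shifts were not tested. The median distance was 180 or 190 kb throughout. In the 10 settings in which both classes were recomputed, 28.2 to 39.1% of member bins and 11.6 to 15.8% of other intergenic bins were anchors, and the mean degree was higher for members in each. Depth is unknown, so absent interactions were not detected rather than shown to be absent.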
